A study of Danio rerio with 3 samples.

Results

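The cytosolic ribosomal protein genes of zebrafish were described in single-cell RNA sequencing of tissue dissected from around the developing inner ear. Members were chosen by symbol alone: rpl, rps or rplp followed by a digit, leaving out the kinase genes that start with rps6k and the gene rps27l. Of the 25109 gene rows in the matrices, 81 met this rule, with 80 different symbols because rpl37 is given to 2 gene IDs. Among them 48 symbols start with rpl, of which 4 are rplp, and 33 start with rps. By name 2 members are not subunits of the ribosome: rps19bp1 is named for binding the subunit Rps19, and rpl7l1 belongs to a branch of the Rpl7 family whose yeast relative Rlp7 takes part in assembly of the large subunit. The other 79 are subunit genes.

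The study examined shox2, a homeobox transcription factor gene, in the statoacoustic ganglion and inner ear, and compared wild-type with mutant embryos. There was 1 library for each genotype: wild-type (shox2+/+), mutant (shox2Δ/Δ, a deletion across parts of exons near the start of the gene) and heterozygote (shox2Δ/+), and the embryos of a genotype were pooled. The labels give about 22 hpf for every library, whereas the study's methods describe several stages up to that age pooled within a genotype. The wild-type embryos carried both the neurog1:dsRed and the neurod1:EGFP transgenes and were kept for both colors, and the mutant embryos were the non-fluorescent offspring of shox2Gal4/Δ; UAS:GFP parents, so the wild-type and mutant libraries differed in transgenes and parents as well as in shox2. The library labelled heterozygote is not described in the study's text. No source stated a chemical treatment that set the groups apart. The study's methods name Methylene Blue in the water of embryos in general. For this experiment they name pronase E to remove the chorion and an anesthetic in the de-yolking solution.

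A ribosome is built from a large and a small subunit, each a core of ribosomal RNA covered by ribosomal proteins that are almost all present as a single copy. The large subunit forms the peptide bonds and carries a flexible stalk of acidic P proteins that recruits translation factors, and the small subunit holds the mRNA and decodes it. In vertebrates the mRNAs of these proteins begin with a pyrimidine tract that lets their translation rise and fall together, and they are among the most abundant mRNAs of growing embryonic cells. Zebrafish keeps duplicate genes for several of the proteins.

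A barcode was counted as a cell if it had between 500 and 6500 genes, the upper limit left out, and if less than 5% of its unique molecular identifiers (UMIs, counted molecules) came from mitochondrial mt- genes. This kept 8548 wild-type, 6672 mutant and 8233 heterozygote cells, with 176280326, 131099920 and 157573577 UMIs. The median cell held 19450 wild-type, 17494 mutant and 16570 heterozygote UMIs, and the median mt- share was 1.88%, 2.7% and 2.51%. Levels are given as CPM, UMIs per 1000000 UMIs of the same cells. The 3′ tags count a transcript once whatever its length, so the CPM of different genes were compared without a length correction. With 1 library per genotype no test between genotypes was possible. The intervals given are exact 95% intervals that cover counting error only, not differences between embryos or between preparations.

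Some facts about the libraries touch every comparison. The mutant and wild-type libraries held 2083 barcodes in common, the wild-type and heterozygote libraries 1089 and the mutant and heterozygote libraries 1497. Among kept cells, 1755 wild-type, 1490 mutant and 577 heterozygote cells had a barcode that was also in another library. Of these, 94, 575 and 278 held fewer UMIs than the same barcode did in another library by at least 10 times. Such shallow copies made up 0.0633%, 0.545% and 0.209% of the UMIs, and ribosomal protein genes took 31.0%, 31.9% and 28.7% of theirs. The targeted gene shox2 was at 2.20, 0.999 and 4.52 CPM in the wild-type, mutant and heterozygote libraries. It was thus highest in the library labelled heterozygote. The kit counts tags near the 3′ end of transcripts, and where the shox2 tags fall relative to the deletion was not examined, so these levels were not used to check the genotype. DsRed was at 135, 0.549 and 2.21 CPM and EGFP at 253, 3.65 and 261 CPM in the same order.

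Cells of all 3 libraries were grouped into 39 clusters, and names came from marker lists, so each class name carries the ending "-like". None of the 81 members was among the 2558 highly variable genes, so no cluster rested on them. The selection of variable genes had an upper limit on mean level, which barred abundant genes whatever their variation. In the labelled tissue, the otic-like class was a single cluster with 9 of 12 otic markers raised and oc90, an otoconia matrix gene, among its leading genes. It held 254 wild-type, 224 mutant and 199 heterozygote cells. Neural progenitor-like cells were the most numerous class, with 3509, 2599 and 3480 cells. They came in part from different clusters in the different libraries. Among them, 1 cluster held 909 wild-type, 3 mutant and 10 heterozygote cells, and another 13 wild-type, 514 mutant and 771 heterozygote cells. Further clusters of this kind held 31, 363 and 425 cells, and 4, 211 and 284 cells, in the same order of libraries. In all of these clusters the heterozygote library was like the mutant library, and the wild-type library stood apart. A total of 12 classes had at least 50 cells in every library and were compared. Clusters that stayed unnamed held 2324, 1501 and 1802 cells.

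Ribosomal protein genes took a large part of all UMIs. Over all kept cells their share was 32.6%, 29.2% and 31.3% in the wild-type, mutant and heterozygote libraries. The large-subunit genes, including the stalk, took 18.7%, 16.7% and 17.9%, and the small-subunit genes 13.9%, 12.5% and 13.3%. The ratio of large- to small-subunit UMIs was 1.34 in each library, and over the 12 classes and 3 libraries it ran only from 1.32 to 1.36. The median cell had a share of 32.7%, 30.4% and 32.1%, with an SD between cells of 4.16, 5.69 and 5.35 percentage points. The middle 50% of the cells therefore overlapped between all libraries. Cells with a share under 15% numbered 29, 83 and 62, and cells with a share over 45% numbered 14, 88 and 93.

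The members lay within a narrow band of levels. In each library 76 of the 81 members were between 1000 and 10000 CPM, and 62 wild-type, 62 mutant and 61 heterozygote members were among the 100 most abundant genes. The median member was at 4135, 3855 and 4129 CPM in the wild-type, mutant and heterozygote libraries, and the 10 highest members held 20.6%, 21.0% and 20.9% of the members' UMIs.

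**Figure D1:**
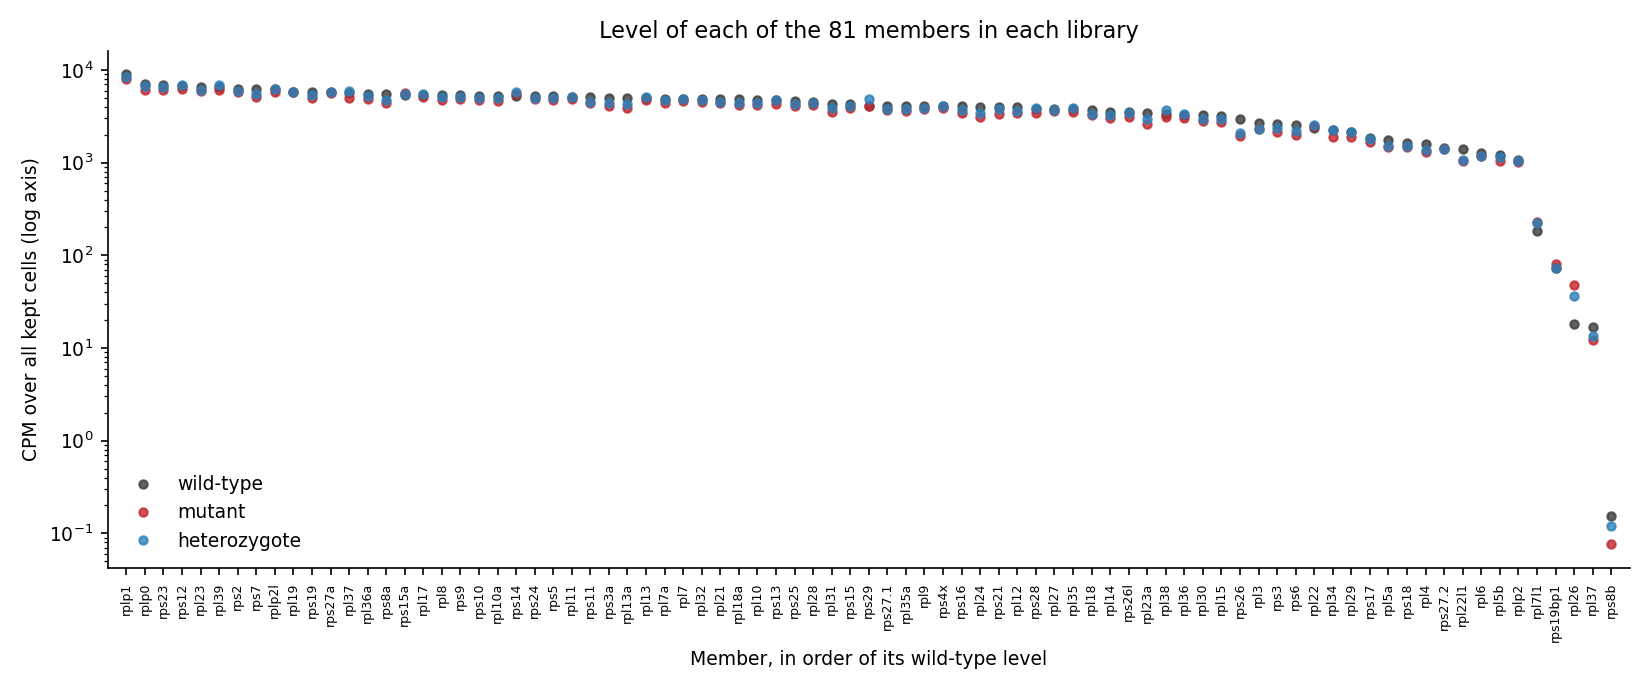
Level of each of the 81 members over all kept cells, in CPM on a log axis, with members in the order of their wild-type level and 1 point for each library. Most points lie between 1000 and 10000 CPM in all 3 libraries, and the 5 members at the right are at 183 CPM or lower in the wild-type library.

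In the large subunit the stalk genes led the order. The gene rplp1, for the acidic stalk protein P1, was highest with 8997, 7906 and 8325 CPM in the wild-type, mutant and heterozygote libraries. The gene rplp0, for the protein P0 that anchors the stalk, followed with 7142, 6155 and 6702 CPM. Both were highest in the wild-type and lowest in the mutant library. For the remaining stalk protein, P2, most UMIs came from rplp2l, at 6162, 5718 and 6270.5 CPM, whereas rplp2 was at 1057, 1011 and 1033 CPM. Of the other large-subunit genes, rpl23 was highest in the wild-type library, with 6582, 5950.4 and 6130.5 CPM.

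The highest small-subunit genes were rps23, whose protein sits at the decoding center, and rps12. The level of rps23 was 6872, 6092 and 6510.3 CPM and that of rps12 was 6641, 6168 and 6853 CPM in the wild-type, mutant and heterozygote libraries. The order of the pair was thus reversed outside the wild-type library.

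The lowest members were 2 non-subunit genes and 3 that were scarcely counted. The assembly gene rpl7l1 was at 183, 228 and 222 CPM in the wild-type, mutant and heterozygote libraries, and rps19bp1 at 72.3, 81.2 and 73.7 CPM. The gene rps8b was close to the floor of counting, with 27, 10 and 19 UMIs in whole libraries, whereas its paralog rps8a was among the abundant members. The less abundant rpl37 row had 16.8, 12.3 and 13.5 CPM, and it held 0.299%, 0.243% and 0.228% of the UMIs of both rpl37 rows. The gene rpl26, whose protein lies near the exit of the peptide tunnel, was at 18.0, 48.4 and 36.4 CPM, far below the large-subunit genes other than that rpl37 row. The values of rps8b and rpl37 are uncertain, because near-identical copies can share reads.

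The share of ribosomal protein UMIs ordered the cell classes in much the same way in every library. In the wild-type library it was highest in neural crest-like cells, at 36.3% (36.25% to 36.31%), followed by pharyngeal arch mesenchyme-like cells at 35.9% (35.90% to 35.97%) and pharyngeal endoderm-like cells at 35.0% (34.98% to 35.05%). Both head mesenchyme-like and pigment-like cells were at 33.7%, and the share was 32.9% in endothelium-like, 32.4% in otic-like and 32.2% in neural progenitor-like cells. The head mesenchyme-like name is uncertain. In its single cluster 9 of 12 head mesenchyme and 6 of 8 heart and lateral plate markers were raised, an equal share. Its leading genes included prrx1a of the first list and gata5 of the second. The lowest shares were 29.0% in notochord and floor plate-like, 28.3% in cranial sensory neuron-like, 28.2% in neuron-like and 27.4% in epidermis-like cells. Apart from neural progenitor-like against notochord and floor plate-like cells, neighbors in this order differed by less than the spread between cells, whose SD within a class was 2.46 to 6.84 points in the wild-type library.

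Among mutant cells the order was led by pharyngeal arch mesenchyme-like cells with 34.7%, then neural crest-like with 33.1% and pigment-like with 32.8%. Epidermis-like, neuron-like and cranial sensory neuron-like cells were lowest, with 23.1%, 23.5% and 23.9%. In the heterozygote library neural crest-like and pharyngeal arch mesenchyme-like cells were at 36.1% and 36.0%, and epidermis-like, neuron-like and cranial sensory neuron-like cells at 25.3%, 25.3% and 26.9%. Cells with the markers of differentiated neurons therefore had a lower share than neural progenitor-like cells in each library, by 4.0, 6.4 and 6.5 points for neuron-like cells. The epidermis-like class joined 3 clusters with unlike shares of 30.7%, 24.8% and 16.8% in the wild-type library. The cluster with the lowest share held 53 wild-type, 111 mutant and 124 heterozygote cells, so the mixture of clusters in this class differed between libraries.

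**Figure D2:**
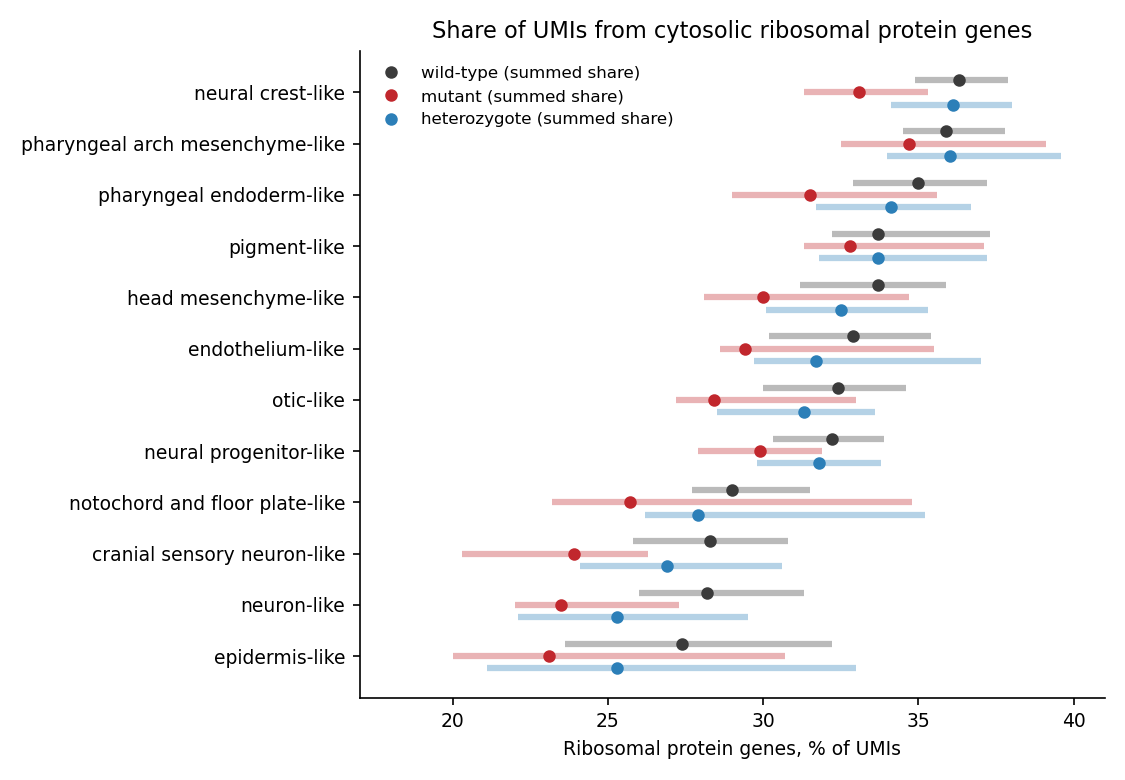
Share of UMIs from cytosolic ribosomal protein genes, in percent, in each of the 12 compared classes and 3 libraries. Points are shares of the summed UMIs and bars the middle 50% of single cells. The mutant point lies to the left of the wild-type point in every class, while the bars of the 3 libraries overlap in most classes.

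Single members followed the summed share closely. Of the 81 members, 78 were at 50 CPM or more over all wild-type cells, and the 3 left out were rps8b, rpl26 and the less abundant rpl37 row. For those 78 the highest class was a median of 1.37 times the lowest in the wild-type library, 1.53 times in the mutant and 1.48 times in the heterozygote library. In each library 76 of the 78 stayed under 2-fold. Over the 2185 other genes that passed the same minimum, which were not matched to the members in level, the wild-type median was 3.61-fold, and 15.9% stayed under 2-fold. The classes were built from variable genes below an upper limit on mean level, which barred abundant members whatever their variation. This contrast is therefore a description of the clustering as well as of the genes. In the wild-type library 67 of the 78 members were lowest in epidermis-like, neuron-like or cranial sensory neuron-like cells, and 60 were highest in neural crest-like or pharyngeal arch mesenchyme-like cells. Across the 12 wild-type classes, 73 of the 78 had a Pearson correlation above 0.8 with the sum of the other members. The classes share libraries and totals, so this is given without a test.

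Among the 78 members at 50 CPM or more, those with the widest range between classes were the non-subunit genes. The assembly gene rpl7l1 was at 294 CPM in neural crest-like and 35.0 CPM in neuron-like cells of the wild-type library, an 8.42-fold range. In the mutant and heterozygote libraries its range was 8.36-fold and 7.94-fold, again with neuron-like cells lowest, at 46.6 and 43.2 CPM. In the wild-type library rpl7l1 was low also in notochord and floor plate-like cells, at 64.7 CPM, and at 164 CPM in neural progenitor-like, 158 in cranial sensory neuron-like and 189 CPM in otic-like cells. The gene rps19bp1 ran from 37.0 CPM in notochord and floor plate-like to 109 CPM in pigment-like wild-type cells, a 2.94-fold range. The lowest of these rests on 40 UMIs.

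Among subunit genes of the same 78 the widest wild-type ranges were 1.75-fold for rpl22l1, 1.56-fold for rpl5b, 1.54-fold for rps26l and for rps7, 1.52-fold for rplp2 and 1.51-fold for rplp1. For rpl22l1 the level was 1666 CPM in pharyngeal arch mesenchyme-like and 952 CPM in notochord and floor plate-like cells. The protein of rpl5b binds the 5S ribosomal RNA, and its level was 1434 CPM in pharyngeal endoderm-like and 916 CPM in neuron-like cells. For rps7 the level was 7181 CPM in pharyngeal arch mesenchyme-like and 4669 CPM in notochord and floor plate-like cells. For rplp1 it was 10255 CPM in neural crest-like and 6799 CPM in notochord and floor plate-like cells. Several of the widest ranges thus belonged to 1 gene of a paralog pair. At the other end, rps15 ranged 1.3-fold, from 3701 CPM in neuron-like to 4641 CPM in pharyngeal endoderm-like cells.

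The comparison that the design turns on is mutant against wild-type, with the heterozygote beside it. Both ratios below use the same wild-type library, so they are not independent of each other. Over all cells the difference in the ribosomal protein share from the wild-type library was -3.40 percentage points for the mutant (log2 ratio -0.16) and -1.31 points for the heterozygote (log2 ratio -0.06). With cells of 10000 to 20000 UMIs only, these log2 ratios were -0.07 and 0.01. The all-cell values mix classes whose numbers differed between libraries. Epidermis-like cells, with the lowest share, were 373 of 8548 wild-type, 595 of 6672 mutant and 605 of 8233 heterozygote cells. Retina-like cells, too few in the wild-type library to be compared, numbered 4, 80 and 299, with shares of 35.8%, 36.6% and 36.8%. The part of this mixture in the all-cell differences was not tested. The share of summed UMIs was lower in the mutant in 12 of 12 classes. The log2 ratio ran from -0.26 in neuron-like, -0.24 in cranial sensory neuron-like and -0.24 in epidermis-like cells to -0.05 in pharyngeal arch mesenchyme-like and -0.04 in pigment-like cells. In otic-like cells the share was 32.4% (32.36% to 32.44%), 28.4% (28.38% to 28.46%) and 31.3% (31.26% to 31.35%) in the wild-type, mutant and heterozygote libraries. In neural progenitor-like cells it was 32.2% (32.20% to 32.22%), 29.9% (29.90% to 29.92%) and 31.8% (31.81% to 31.83%). The heterozygote share lay between the others in both classes, and it was below the wild-type share in 11 of 12 classes, the exception being pharyngeal arch mesenchyme-like cells with a difference of 0.07 points. These intervals do not overlap, but the cells do: the SD between neural progenitor-like cells was 2.79, 3.36 and 3.11 points. The median mutant cell was not below the median wild-type cell in notochord and floor plate-like (29.4% against 29.3%) or pigment-like cells (33.9% against 33.6%). It was below in the other classes. Among cells with 10000 to 20000 UMIs the mutant was higher in epidermis-like (25.9% against 25.6%) and pharyngeal arch mesenchyme-like cells (39.6% against 36.9%). It was lower in the other classes with at least 20 such cells in both libraries.

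By cluster, the mutant share was lower in 28 of the 29 clusters with at least 20 cells in both libraries, by a median of 2.90 points, and the heterozygote share in 22 of 29, by a median of 0.80 points. The mutant share was also below the heterozygote share in 34 of 35 such clusters, with a median difference of -2.20 points. Over all cells that difference was -2.09 points (log2 ratio -0.10). By class this log2 ratio ran from -0.17 in cranial sensory neuron-like to -0.04 in pigment-like cells. Without the shallow copies the mutant over wild-type log2 ratio stayed at -0.11 in neural progenitor-like and -0.19 in otic-like cells. Without every cell whose barcode was also in another library it was -0.11 and -0.19 in these classes and -0.12 over all cells. With neural progenitor-like cells limited to clusters that had at least 50 cells in every library it was -0.12.

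The mt- share moved with the ribosomal protein share. Among neural progenitor-like cells mt- genes took 1.83%, 3.06% and 2.71% of UMIs in the wild-type, mutant and heterozygote libraries. Within the mutant library the ribosomal protein share fell from 36.5% in neural progenitor-like cells with under 1% mt- UMIs to 28.4% in those with 4 to 5%, whereas in the wild-type library it was between 31.1% and 32.5% in every bin of at least 20 cells. In neural progenitor-like cells with 1 to 2% mt- UMIs the shares were 32.2% in 2439 wild-type, 32.3% in 223 mutant and 33.4% in 520 heterozygote cells, so the mutant was not lower there. In cells with 2 to 3% they were 32.2%, 30.3% and 31.9%, and the mutant was lower. In otic-like cells with 1 to 2% mt- UMIs the mutant was lower, at 28.4% against 32.7% in the wild-type and 32.3% in the heterozygote library. In the same bin it was lower than the wild-type over all cells (27.6% against 32.4%), in epidermis-like (20.7% against 27.7%) and in cranial sensory neuron-like cells (24.6% against 28.3%). It was higher in pharyngeal arch mesenchyme-like cells (38.4% against 36.4%). Limiting all cells to 1 to 3% mt- UMIs left log2 ratios of -0.08 in neural progenitor-like and -0.18 in otic-like cells and turned the sign in pharyngeal arch mesenchyme-like cells, to 0.01. The part of the mt- share in the lower mutant values was not tested beyond these bins.

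Depth moved with it as well. Among all cells with more than 40000 UMIs the share was 32.4%, 25.7% and 27.8% in the wild-type, mutant and heterozygote libraries, and among cells with 5000 to 10000 UMIs it was 33.9%, 36.0% and 34.5%. In the bin between, of 10000 to 20000 UMIs, it was 32.1%, 30.6% and 32.4%, so the heterozygote was not lower there. The mutant share was thus the lowest of the 3 among the deep cells and the highest with 5000 to 10000 UMIs. It was not the highest with 2000 to 5000, where the shares were 32.7%, 34.0% and 34.1%. These bins mix classes: above 40000 UMIs, 69 of 501 wild-type, 168 of 557 mutant and 154 of 576 heterozygote cells were epidermis-like. An unnamed cluster with a mutant share of 37.6% held 452 mutant cells with a median of 7779 UMIs, and its wild-type cells had a median of 2121 UMIs. Neural progenitor-like cells with 5000 to 10000 UMIs had 31.6%, 31.5% and 31.1%, and those above 40000 UMIs had 32.5%, 29.1% and 31.4%. In neural progenitor-like cells with 10000 to 20000 UMIs the shares were 32.2%, 30.0% and 32.2%, close to those of the whole class. Otic-like cells of that depth (62, 27 and 29 cells) had 31.1%, 30.0% and 31.5%, nearer to each other than in the whole class. Otic-like cells under 2000 UMIs had 32.0%, 32.3% and 30.7%. Those with 20000 to 40000 UMIs had 32.1%, 27.8% and 30.8%, and those above 40000 UMIs had 33.5%, 28.1% and 31.8%. Across mutant cells the Spearman correlation of the share with UMIs per cell was -0.29 over all cells and -0.04 in neural progenitor-like cells (2599 cells), and with the mt- share -0.35 and -0.36. In wild-type cells the same correlations were 0.12 and 0.08 for UMIs, and 0.05 and -0.02 for the mt- share. Among otic-like cells the correlation with UMIs was -0.41 in the mutant, 0.13 in the wild-type and 0.16 in the heterozygote library. All these measures share the cell's total UMIs as a denominator or as a term.

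**Figure D3:**
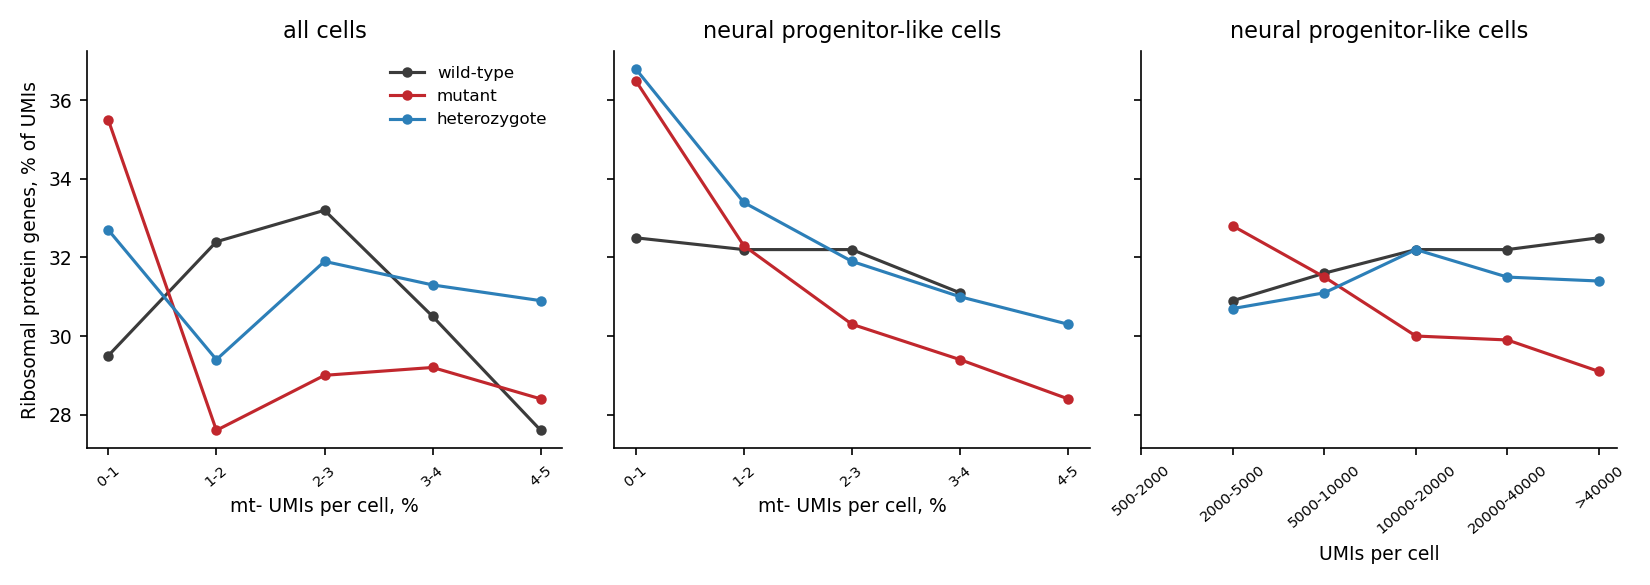
Share of UMIs from ribosomal protein genes, in percent, for cells binned by their mt- share (left and middle) or by their UMIs (right), over all cells and in neural progenitor-like cells. Each point is the summed share of at least 20 cells of a library. The mutant line in neural progenitor-like cells starts at 36.5% under 1% mt- UMIs, meets the wild-type line near 32% in the bin of 1 to 2%, and ends at 28.4%. Over all cells the mutant point in the bin of 1 to 2% is at 27.6%, below the wild-type point at 32.4%.

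The share was also compared just inside and just outside the cell filters. It differed most at the mt- limit in the wild-type library, and little at the limits on genes. Just inside the mt- limit, at 4 to 5%, the share was 27.6% in 87 wild-type, 28.4% in 837 mutant and 30.9% in 539 heterozygote barcodes, and just outside it, at 5 to 6%, it was 22.9%, 28.0% and 28.6%. Barcodes with 400 to 500 genes had 28.9%, 30.5% and 28.5%, and those with 500 to 600 genes 29.6%, 30.5% and 28.9%. The upper limit separated 32.8%, 26.8% and 29.5% at 6000 to 6500 genes from 32.9%, 26.7% and 29.2% at 6500 to 7000.

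For single members a call was a log2 ratio of CPM of at least 0.32 in either direction, among genes that reached 50 CPM in either library, and the share of all tested genes past the same limit is given as background. For mutant over wild-type, 78 members were tested in neural progenitor-like cells. Of these, 67 had a ratio below 1, and their median log2 ratio was -0.11 beside 0.07 for all 2493 genes tested. These medians are tied to each other, because CPM divides by a total of which the members held 32.2% in the wild-type and 29.9% in the mutant library. A lower member share by itself raises the CPM of other genes. Past this limit, 4 members were lower and 1 was higher, where 12.5% of all tested genes were lower and 25.8% higher. The members called were thus a smaller share than among all genes in both directions. For heterozygote over wild-type, 2 members were lower and 0 higher, with 13.2% and 20.1% of all tested genes, and rpl7l1 lay just under the limit. For mutant over heterozygote no member passed the fold in either direction in neural progenitor-like cells, where 1.59% of all tested genes were lower and 3.72% higher. At 1.5-fold, 1 member was lower and 0 were higher in the mutant over wild-type ratio, beside 5.33% and 12.9% of all genes, and 0 members passed in the heterozygote ratio, beside 4.54% lower and 9.86% higher.

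In otic-like cells, 12 of 78 members were lower past the limit in the mutant and 1, rps19bp1, was higher. Among all 2639 genes tested 11.6% were lower and 27.0% higher. The median log2 ratio of the members was -0.18, and of all genes 0.10, again tied through the shared total. At 1.5-fold only rps26 was lower among members, beside 4.24% of all genes lower and 12.0% higher. In cranial sensory neuron-like cells 16 of 78 members were lower and 0 higher, beside 15.8% and 37.1% of all genes, and in neuron-like cells 24 of 77 were lower and 0 higher, beside 10.4% and 28.1%. The lower members in otic-like cells were rpl13a, rpl22l1, rpl23a, rpl24, rpl29, rpl34, rps3, rps3a, rps6, rps7, rps8a and rps26, so they came from both subunits. For mutant over heterozygote, 3 of 78 members were lower in otic-like cells (rpl34, rps29 and rpl38) and 0 higher, beside 2.79% and 9.78% of all genes. In cranial sensory neuron-like cells 3 of 78 were lower in that ratio (rps29, rpl38 and rpl37) and 0 higher, beside 6.46% and 15.3%.

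**Figure D4:**
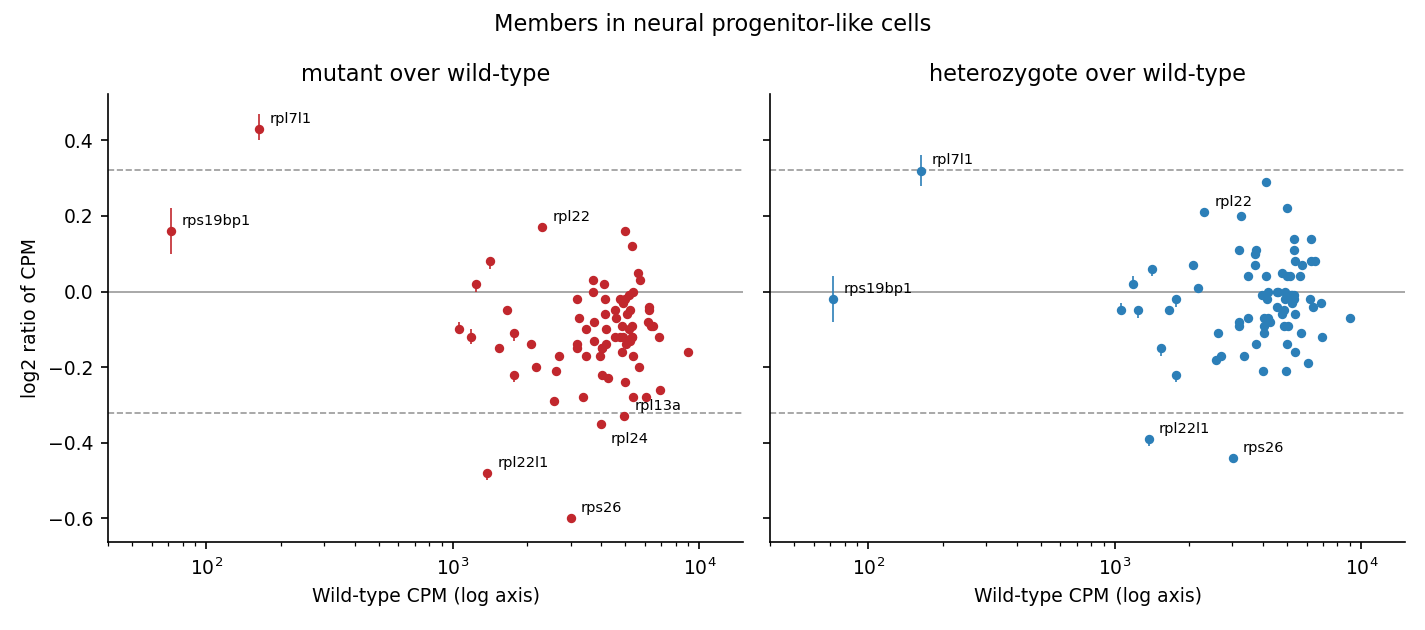
Log2 ratio of CPM against the wild-type level on a log axis, for the 78 members with at least 50 CPM in a library, in neural progenitor-like cells, for mutant over wild-type and heterozygote over wild-type. Bars are exact intervals that cover counting error only, and dashed lines mark log2 ratios of 0.32 and -0.32. Most members lie just below 0 in the mutant ratio, with rps26 and rpl22l1 apart below in both and rpl7l1 apart above in the mutant ratio.

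Among subunit genes that reached 50 CPM, rps26 differed most in mutant neural progenitor-like cells, and its protein lies at the exit of the mRNA channel in the yeast ribosome. In neural progenitor-like cells it was at 3002, 1982 and 2219.6 CPM in the wild-type, mutant and heterozygote libraries. Its log2 ratio was -0.60 (-0.61 to -0.59) for the mutant and -0.44 (-0.45 to -0.43) for the heterozygote. It was lower than in the wild-type library in all 12 classes in both, with log2 ratios from -0.76 in neuron-like to -0.48 in pharyngeal endoderm-like cells for the mutant and from -0.61 to -0.36 in the same classes for the heterozygote. In otic-like cells it was at 2896, 1872 and 2119 CPM, and the wild-type level stood apart from the other libraries in each of these classes.

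The next was rpl22l1, which encodes a paralog of the RNA-binding protein Rpl22. Its neural progenitor-like level was 1371, 981 and 1044 CPM, a log2 ratio of -0.48 (-0.50 to -0.47) for the mutant and -0.39 (-0.41 to -0.38) for the heterozygote. It was lower in all 12 classes in both libraries, by a log2 ratio of -0.61 in neuron-like and -0.16 in pharyngeal arch mesenchyme-like cells in the mutant. Its partner rpl22 went the other way in neural progenitor-like cells, at 2304, 2588 and 2660.2 CPM, with log2 ratios of 0.17 and 0.21.

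The other lowest ratios in mutant neural progenitor-like cells belonged to rpl24, which forms a bridge to the small subunit, to rpl13a and to rps6, the substrate of S6 kinases. The level of rpl24 was 3974, 3111 and 3444 CPM in the wild-type, mutant and heterozygote libraries (log2 ratios -0.35 and -0.21). That of rpl13a was 4934, 3922 and 4267 CPM (log2 ratios -0.33 and -0.21), and that of rps6 was 2581, 2111 and 2274 CPM (log2 ratios -0.29 and -0.18). In the heterozygote the low end was completed by rpl5a, at 1769, 1516 and 1515 CPM, with a log2 ratio of -0.22 in both libraries. For each of these genes the heterozygote was nearer to the wild-type than the mutant was, apart from rpl5a, where mutant and heterozygote were level.

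At the upper end, rpl7l1 was at 164, 221 and 204 CPM in wild-type, mutant and heterozygote neural progenitor-like cells, with log2 ratios of 0.43 (0.40 to 0.47) and 0.32 (0.28 to 0.36). The level of rps19bp1 was 72.0, 80.6 and 71.1 CPM, with log2 ratios of 0.16 (0.10 to 0.22) and -0.02 (-0.08 to 0.04). Of the subunit genes, rps14 was at 5011, 5594 and 5857 CPM (log2 ratios 0.16 and 0.22) and rps15a at 5323, 5771 and 5733 CPM (0.12 and 0.11). In the heterozygote the highest ratio of a subunit gene that reached 50 CPM was that of rps29, at 4089.8, 4144 and 5016 CPM, with log2 ratios of 0.02 in the mutant and 0.29 in the heterozygote. The gene rpl38 was at 3246, 3102 and 3721 CPM and had log2 ratios of -0.07 and 0.20. Both rps29 and rpl38 thus stood higher in the heterozygote library than in either of the others.

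Scaling changed how many members passed the limit. Scaled to the UMIs outside the list, 8 members in neural progenitor-like and 26 in otic-like cells were lower past it in the mutant, beside 14.9% and 16.6% of all tested genes. With median-of-ratios factors the counts were 9 and 28, beside 16.0% and 17.1%. The ratio of rps26 in neural progenitor-like cells ran from -0.67 to -0.53 over all alternatives and that of rpl22l1 from -0.55 to -0.44, and neither changed sign.

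The gene rpl26 was below the 50 CPM limit in neural progenitor-like cells and so was not among the 78 members there. It had 1231 wild-type, 2533 mutant and 2138 heterozygote UMIs there, or 17.7, 49.6 and 36.3 CPM. Its log2 ratio was 1.49 (1.39 to 1.59) for the mutant and 1.04 (0.94 to 1.14) for the heterozygote. It was higher than in the wild-type library in all 12 classes in both, with log2 ratios from 0.98 in cranial sensory neuron-like to 1.67 in pigment-like cells for the mutant. The lowest wild-type count was 14 UMIs, in notochord and floor plate-like cells. Whether reads of rpl26 were lost or assigned to another row, and differently so between libraries, was not examined.

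Paralogs were compared as shares of a pair's UMIs, which need no scaling. The share of rps26l in the rps26 and rps26l pair was 54.0% (53.9% to 54.1%), 61.6% (61.5% to 61.8%) and 62.1% (62.0% to 62.2%) in the wild-type, mutant and heterozygote libraries over all cells. In the wild-type library it ran from 46.3% among notochord and floor plate-like cells to 55.9% among neural crest-like cells. In the mutant it was between 55.2% and 64.4% and in the heterozygote between 55.4% and 64.9%. Within every class the mutant and heterozygote shares were above the wild-type share, and in 11 of the 12 classes they were within 1 point of each other. In otic-like cells the rps26l shares were 54.3%, 60.3% and 60.2%. The level of rps26l itself was lower in the mutant than in the wild-type library in all 12 classes, with the interval of the ratio below 0 in 10. In the heterozygote it was lower in 7 classes and higher in 5. Its otic-like level was 3439, 2839.8 and 3199.7 CPM in the wild-type, mutant and heterozygote libraries.

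The share of rpl22l1 in the rpl22 and rpl22l1 pair was 37.0% (36.9% to 37.1%), 29.7% (29.6% to 29.9%) and 29.3% (29.2% to 29.5%) over all cells. In neural progenitor-like cells it was 37.3%, 27.5% and 28.2%, and in otic-like cells 36.0%, 28.7% and 29.4%. It was lowest in notochord and floor plate-like cells of every library, at 31.1%, 24.0% and 24.0%, and lower in the mutant and heterozygote than in the wild-type library in every class. The mutant and heterozygote shares were within 1 point of each other in 8 of the 12 classes. In endothelium-like cells, with 34.9%, 31.4% and 27.0%, the mutant was nearer to the wild-type than to the heterozygote library. In both pairs the wild-type interval overlapped neither of the others in any of the 12 classes.

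**Figure D5:**
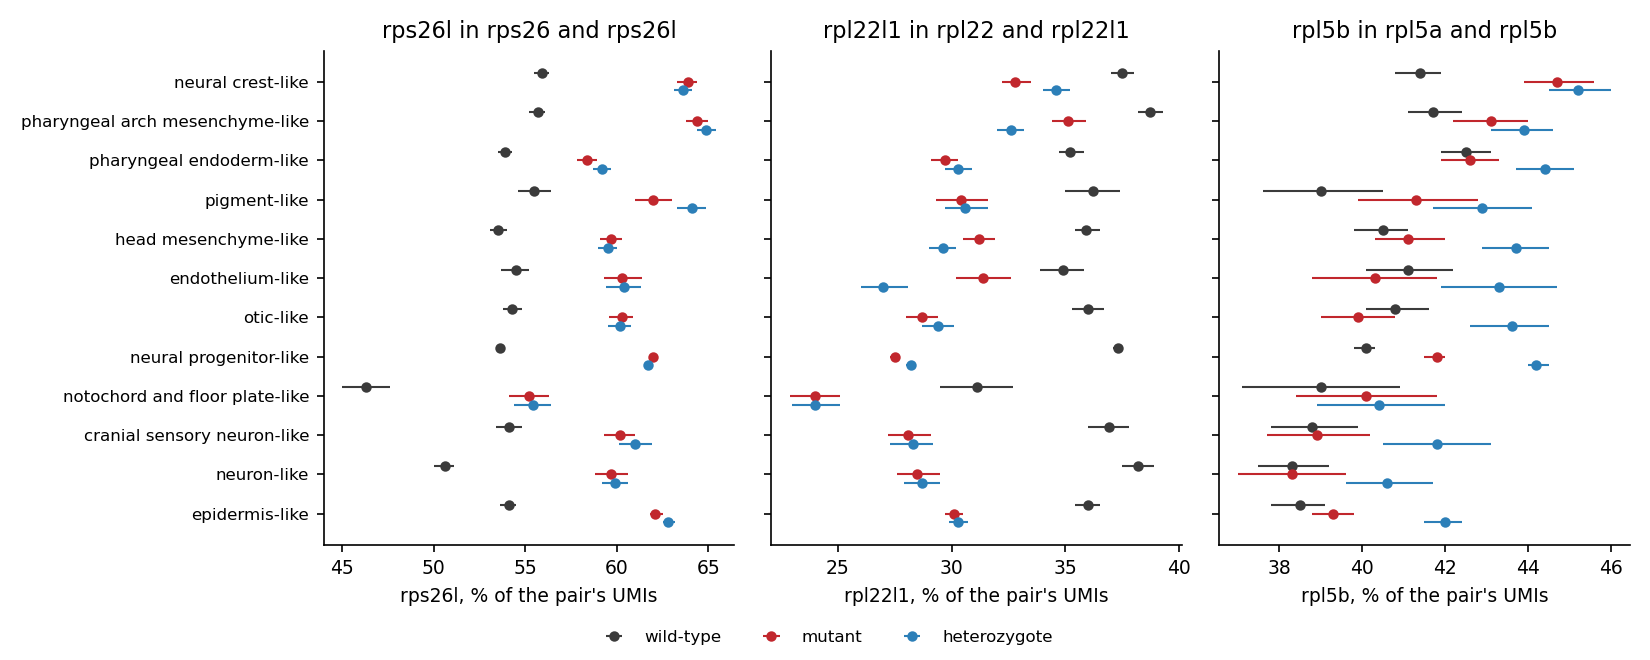
Share of the second gene in the UMIs of 3 paralog pairs, in percent, by class and library, with exact 95% intervals that cover counting error only. For rps26l and rpl22l1 the wild-type interval overlaps neither of the others in any of the 12 classes, while for rpl5b the points of the 3 libraries lie closer together.

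Other pairs differed less. The gene rpl5b held 40.4%, 41.4% and 43.5% of the rpl5a and rpl5b UMIs, and rps27.2 held 26.0%, 27.4% and 27.0% of the rps27.1 and rps27.2 UMIs. The gene rplp2l, with 85.4%, 85.0% and 85.9%, supplied most of the P2 UMIs. The assembly gene rpl7l1 held 3.62%, 4.64% and 4.4% of the rpl7 and rpl7l1 UMIs. The share of rps8b in its pair was 0.00281%, 0.00175% and 0.00254%, with intervals that overlap. The values of all pairs are uncertain to the extent that near-identical copies share reads, which was not tested, and the wild-type and mutant libraries came from different parents, which cannot be told apart from the genotype. The parents of the heterozygote library are not given in the sources used here.

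Genes outside the symbol rule that belong to the same machinery were counted for comparison. The gene rpsa, for a protein of the small subunit, was at 4504, 3830.5 and 4012 CPM in the wild-type, mutant and heterozygote libraries. The gene rack1, whose protein is bound to the small subunit, was at 2946, 2568 and 2736 CPM, and faua, for a small-subunit protein made as a fusion with a ubiquitin-like protein, at 3977, 3647 and 3912 CPM. All 3 were lowest in the mutant library. A list of 31 translation factors took 3.24%, 2.88% and 3.00%. In neural progenitor-like cells 4 of its 26 tested genes were higher and 5 lower in the mutant, beside 25.8% and 12.5% of all genes.

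A list of 30 genes for ribosome biogenesis, which make and assemble the subunits in the nucleolus, went the other way in most classes. Among neural progenitor-like cells it took 0.476%, 0.665% and 0.623% of UMIs in the wild-type, mutant and heterozygote libraries. There 20 of its 26 tested genes were higher past the limit in the mutant and 0 lower, beside 25.8% and 12.5% of all genes. The median log2 ratio of the list was 0.50, beside 0.07 for all genes. In otic-like cells it took 0.603%, 0.764% and 0.734%, with 14 of 27 higher and 0 lower, beside 27.0% and 11.6% of all genes. In cranial sensory neuron-like cells it was lower instead, at 0.466%, 0.380% and 0.396%, with 0 of 21 higher and 11 lower, beside 37.1% and 15.8% of all genes. The 20 cell cycle genes counted beside it took 0.486%, 0.201% and 0.223% of UMIs in those cells. There 18 of 18 tested genes were lower in both the mutant and the heterozygote, beside 15.8% and 17.2% of all genes. In neural progenitor-like cells the cell cycle genes took 0.901%, 0.802% and 0.819%.

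The 74 mitochondrial ribosomal protein genes, nuclear genes for the ribosome of the mitochondrion, took 0.397%, 0.435% and 0.425% of UMIs over all cells and so did not share the lower mutant level of the cytosolic genes. A list of 16 genes known to rise when tissue is dissociated took 0.216%, 0.286% and 0.230%, with 7 of 11 tested genes higher in the mutant and 0 lower, beside 22.7% and 10.2% of all genes. In endothelium-like cells it went the other way, at 0.303%, 0.252% and 0.215%. There 1 of 10 tested genes was higher and 4 were lower in the mutant, beside 27.9% and 12.2% of all genes. The part of this list in the lower ribosomal protein share was not tested.

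Over the 36 sums of a class in a library, the CPM of 2282 genes was set against the sum of the members. Among the most like were rack1 (Pearson r 0.97), faua (0.95), si:dkey-151g10.6 (0.94), zgc:171772 (0.93), rpsa (0.90), eif3ha (0.88), eef2b (0.88) and eif3g (0.86). Of these, rack1, faua and rpsa are the genes described above, and eif3ha, eef2b and eif3g encode translation factors. The row si:dkey-151g10.6, which the table gives no other name, was the most abundant gene of every library, at 15603, 13893 and 15005 CPM, above every member. At the opposite end the polyubiquitin gene ubb had an r of -0.89, and its level was 88.1, 162 and 133 CPM. The sums share libraries and totals, so these correlations are descriptions without a test.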

How the data were processed

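Tissue around the otic vesicle was sequenced with 10x 3′ version 3 chemistry, 1 library for each genotype. The authors made the deposited UMI count matrices with Cell Ranger 4.0.0 (per the file headers) against a custom zebrafish GRCz11 reference that held DsRed and EGFP, and the counts are not normalized. Reads of near-identical copies and of overlapping genes can be lost or split in this step. The submitters' notes also name Scanpy. No column of another series was present.

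Barcodes of the 3 libraries with 500 or more and under 6500 genes and with less than 5% mt- UMIs were kept, as in the study's methods. After scaling each cell to 10000 and taking logs, total counts and mt- percent were regressed out, and 2556 variable genes, 40 principal components and 10 neighbors were used for Leiden clustering at resolution 1 (scanpy 1.11.5, leidenalg 0.10.2, igraph 0.11.9, scipy 1.17.1, pandas 2.3.3, numpy 2.4.6, python 3.11.15). DsRed, EGFP and the members were left out of the variable genes. No doublet caller was run, and an alternative left out, per library, the deepest 8% of cells by UMIs. Clusters took the name of the marker list of which most genes, as a share, stood 2-fold or more above the average cluster, provided that 3 or more did and that no other list had more of the 10 leading genes. Where lists tied, as for the head mesenchyme-like class, the name came from the list written first. A cluster with no leading gene on its own list also stayed unnamed, but the neural progenitor list was exempt from this. An unnamed cluster of 1533 cells thus had 10 of 12 head mesenchyme markers raised, while a neural progenitor-like cluster of 1192 cells had 3 of 18 raised. A rule on depth left no cluster of the main clustering unnamed.

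UMIs were summed per library and class. Shares have exact binomial (Clopper-Pearson) intervals, CPM exact Poisson intervals and ratios exact conditional ones, at 95%, and a gene at 0 in a library was set to 3 counts in a ratio. The total UMIs per library set the precision. Genotypes were compared by ratios, and a call was a log2 ratio of 0.32 or more in size among genes that reached 50 CPM in either library, with no test. The ratio script was tested on simulated data for neural progenitor-like cells, mutant over wild-type, with 2206 genes of which 200 were changed 2-fold. In it 100.00% of the changed genes passed the fold, 0% of the others did, and 95.4% of the intervals held the true value. The simulated counts held counting error only. They say nothing about differences between embryos or libraries, or about recovery of changes smaller than 2-fold.

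Every member was counted. Named with values were the 5 highest and 5 lowest by wild-type CPM, the 8 with the widest range across classes, the 5 highest and 5 lowest ratios of mutant and of heterozygote over wild-type in neural progenitor-like cells, all paralog pairs, the members that are not subunits, and the 10 genes most like the summed members, of which some are not reported here. The genes rpl26, rpl23a, rps29 and others named as called members followed from the calls, and rps15 and ubb were added after their values were seen. The members, lists and rules were chosen with earlier results of these data known. Sequences of promoters and proteins were not used here. The alternatives covered the cells kept, depth, members, denominator, clustering, scaling, fold and level minimum. Figures were drawn with matplotlib 3.10.9. The imaging and behavior experiments of the study are not analysed here.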

Additional observations from a re-analysis of the deposited data

Results flagged for a closer look

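A few results differed in direction between cell classes, with counting intervals on opposite sides of 0. With 1 library per genotype the difference between classes was not tested in any of them. The log2 ratio of rpl7l1 in the mutant over the wild-type library was -0.27 in cranial sensory neuron-like cells and 0.48 in pigment-like cells, and it was above 0 in 11 of the 12 classes. In the heterozygote over the wild-type library it was -0.26 in cranial sensory neuron-like cells and 0.38 in pigment-like cells. The same class stood apart for the summed list of ribosome biogenesis genes, whose log2 ratio was -0.29 in cranial sensory neuron-like and 0.74 in pigment-like cells for the mutant, and for the heterozygote -0.23 in cranial sensory neuron-like cells, with 0.60 among notochord and floor plate-like cells. In cranial sensory neuron-like cells the summed cell cycle list was lower as well, with log2 ratios of -1.27 and -1.12, and its part in these values was not tested. The log2 ratio of rps26l in the heterozygote over the wild-type library was -0.10 in otic-like cells, whereas notochord and floor plate-like cells had 0.15.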

How the results depend on the processing

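The log2 ratio of the ribosomal protein share over all cells, mutant over wild-type, was -0.16 and stayed below 0 under every alternative run. It was -0.07 with cells of 10000 to 20000 UMIs only, -0.09 as a mean of per-cell shares, -0.11 without the 8% of cells with the most UMIs, -0.12 without every shared barcode, -0.15 with an mt- share under 3% or with mt- UMIs left out of the total, -0.17 over every deposited barcode or with clusters of at least 50 cells in each library only, and -0.19 with 1 to 3% mt- UMIs. The heterozygote ratio of -0.06 became 0.01 with cells of 10000 to 20000 UMIs only, -0.02 without the deepest 8% and as a mean of per-cell shares, -0.05 without mt- UMIs in the total, and -0.07 with 1 to 3% mt- UMIs or with those clusters only. In the 10000 to 20000 UMI cells only 2 classes reached 50 cells in each library, and the mutant and the heterozygote were lower in both (2 of 2), where the main counts were 12 and 11. Directions changed in pharyngeal arch mesenchyme-like cells for the mutant (0.08 under 3% mt- UMIs, 0.01 with 1 to 3%), and for the heterozygote in neural crest-like (0.01 in both), epidermis-like (0.06 without the deepest 8%), endothelium-like (0.04) and notochord and floor plate-like cells (0.03, both as means of per-cell shares). The causes were not tested. The number of members lower in mutant neural progenitor-like cells, 4 (12.5% of all tested genes), was 2 with an mt- share under 3% (12.9%) or of 1 to 3% (12.6%), 9 with median-of-ratios scaling (16.0%), 8 with scaling to UMIs outside the list (14.9%) and 1 at 1.5-fold (5.33%). In the heterozygote 2 (13.2%) became 0 at 1.5-fold (4.54%). In mutant otic-like cells 12 (11.6%) became 7 without the deepest 8% (13.2%), 28 and 26 under the same scalings (17.1% and 16.6%) and 1 at 1.5-fold (4.24%). The median range of the members across classes, 1.37-fold over 12 classes, was 1.12-fold with cells of 10000 to 20000 UMIs and 1.5-fold at Leiden resolution 2. These settings compared 2 and 13 classes. The range depends on which classes enter it, so these values cannot show an effect of depth or resolution. The members were not among the variable genes, so allowing them there changed no value. The alternatives on shared barcodes, on 1 to 3% mt- UMIs and on clusters shared by all libraries were chosen after seeing the data. No paired analysis was possible because each genotype had 1 library. The planned search for pyrimidine tracts in the members' promoters was not run.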
